A study of Homo sapiens with 8 samples.

Results

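The 10 genes described here, SPI1, SPIB, FLI1, ERG, ETS1, ETS2, ETV6, ELF1, ELF4 and GABPA, encode ETS transcription factors that act in blood cells. They were taken as every probe set whose platform annotation lists exactly 1 gene symbol equal to 1 of these names, which gave 30 of the 54675 probe sets on the array. No measured value entered that choice, although the genes were chosen with earlier results of these data known. SPI1 had 1 probe set, SPIB, ELF1, ELF4 and GABPA had 2 each, ETS1 and ETS2 had 3 each, ERG had 4, ETV6 had 5 and FLI1 had 6.

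ETS factors share a DNA-binding domain that reads a purine-rich core, GGAA, and differ in the partners they bind. SPI1, also named PU.1, drives granulocytes, monocytes and B cells and opposes the erythroid regulator GATA1 in precursor cells. FLI1 and ERG act in stem cells, megakaryocytes and endothelium, ETV6 is mainly a repressor needed for stem cells and platelets, and GABPA pairs with a separate beta subunit at promoters of housekeeping and mitochondrial genes.

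RNA came from K562, an established line with BCR-ABL and erythroid features that derives from the blast crisis of a chronic myeloid leukaemia. Both groups stably carried p42-C/EBPα-ER, the full-length form of the granulocyte factor C/EBPα fused to the oestrogen receptor, and were kept without phenol red in charcoal-stripped serum, which removes steroid hormones. Of the cultures, 4 received 1 µM estradiol, the ligand that moves such a fusion into the nucleus, and 4 received ethanol vehicle, each for 6 h. The sample titles call the arrays biological replicates, and the p-values set each difference against the scatter between these arrays of 1 line. The labels name no cells without the fusion, and the sources used here do not give the promoter that drives it or whether the line is 1 clone.

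Each array gave a log2 expression value per probe set, with array medians from 4.97 to 5.08. Precision is limited by the number of arrays. CEBPA and ESR1, the genes of the fusion partners, differed by −0.02 and 0.04 between the groups (limma adjusted p = 0.883 and 0.699), and the labels do not say whether their probes lie within the transgene. Of 9 measured erythroid markers 0 had a mean level below 5.04, the median of the means of all probe sets. For markers of granulocytes and monocytes this was 7 of 10, for megakaryocytes 1 of 6, for B cells 3 of 5, for T and natural killer cells 5 of 7, and for fibroblasts and endothelium 3 of 7. That yardstick is lenient, since each marker was read on its gene's brightest probe set. Among genes, all read so, erythroid markers stood at percentiles 47.4 to 100 and granulocyte and monocyte markers at 7.8 to 72.2. Megakaryocyte markers stood at 9.8 to 53.4, and fibroblast and endothelial markers at 7.3 to 68.8. In bulk RNA, fewer cells of a type and less RNA per cell cannot be told apart.

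Estradiol raised SPI1 and ETV6 and lowered ETS2, each by less than 2-fold, and the other 7 genes did not pass the test. Of the 30 probe sets 4 were called (limma, Benjamini-Hochberg adjusted p below 0.05 over all 54613 tested probe sets), 3 higher at SPI1 and ETV6 and 1 lower at ETS2. That is 13.3%, near the 10.4% called among all probe sets, of which 5.32% were higher and 5.06% lower. At 7 of the 30 probe sets, 23.3%, no estradiol value fell within the range of the vehicle values, against 17.5% of all. Estradiol lay above at 5 of the 7 (8.65% of all probe sets) and below at 2 (8.87% of all). The median change was 0.03 on the log2 scale over the 30 and −0.02 over all probe sets. With each gene represented by its brightest probe set, 3 of the 10 genes were called, against 17.9% of the 19775 genes, 2 higher (8.29% of all genes) and 1 lower (9.6% of all genes). The same 3 were the genes without overlap, against 24.1% of all genes. Calls were commoner among bright genes. When only genes above the median level were fitted, 4276 of 9887 genes and 3 of 6 members were called. Here and below, the median level in such fits of genes is the median over genes, each read on its brightest probe set. It is higher than the median of the means of all probe sets. SPI1, with a mean of 6.02, stood at percentile 51 among genes and 65.4 among probe sets. Over all genes 46.3% of the calls were higher, and 56.2% with equal array medians or 40.5% with equal upper quartiles, while SPI1, ETV6 and ETS2 kept their directions in these fits. Values of the 10 genes come from the fit over probe sets and values of other genes from the fit over genes. A fold change is that of the array signal.

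**Figure D1:**
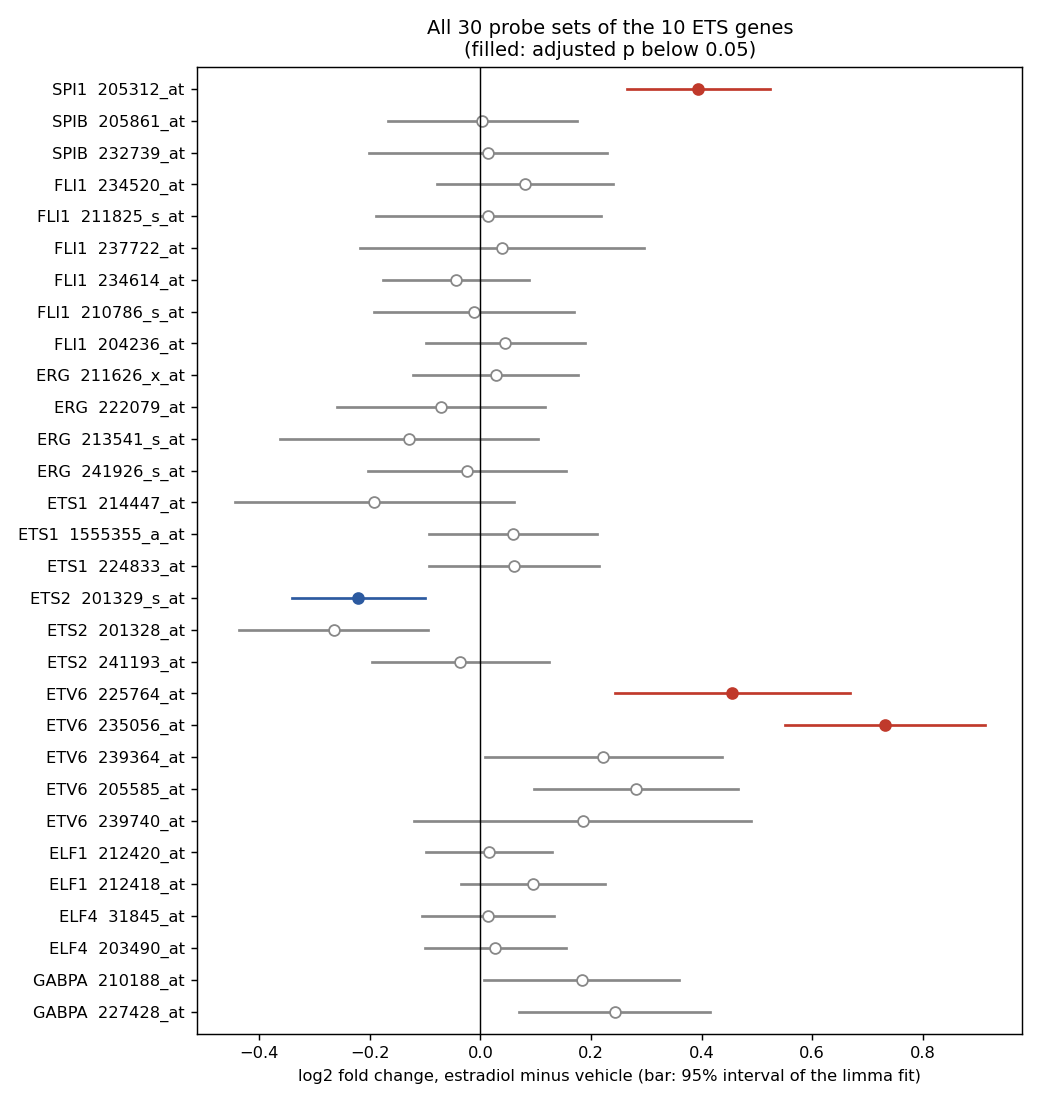
Log2 fold change, estradiol minus vehicle, of all 30 probe sets of the 10 genes, with the 95% interval of the limma fit as a bar. Filled points are the 4 called probe sets, which belong to SPI1, ETV6 and ETS2, and the largest change is 0.73 at ETV6.

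Promoter sequences were at hand for 7 of the 10 genes, as 15 stretches of 300 bases from 250 before to 50 after an annotated start (RefSeq, GRCh38.p14). Those of ETV6 and ETS2 are shown because these genes passed the test in opposite directions. Capitals mark the ETS core GGAA, which reads as TTCC on the other strand, and lower case is all other sequence.
ETV6 (chr12:11649424-11649723, plus strand): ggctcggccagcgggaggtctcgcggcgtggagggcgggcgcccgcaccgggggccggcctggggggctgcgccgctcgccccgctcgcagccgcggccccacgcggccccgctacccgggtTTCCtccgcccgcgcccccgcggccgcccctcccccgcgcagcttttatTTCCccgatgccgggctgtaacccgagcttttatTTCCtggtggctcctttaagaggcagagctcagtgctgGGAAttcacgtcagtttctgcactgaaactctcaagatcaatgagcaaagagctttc
ETS2 upstream start (chr21:38804933-38805232, plus strand): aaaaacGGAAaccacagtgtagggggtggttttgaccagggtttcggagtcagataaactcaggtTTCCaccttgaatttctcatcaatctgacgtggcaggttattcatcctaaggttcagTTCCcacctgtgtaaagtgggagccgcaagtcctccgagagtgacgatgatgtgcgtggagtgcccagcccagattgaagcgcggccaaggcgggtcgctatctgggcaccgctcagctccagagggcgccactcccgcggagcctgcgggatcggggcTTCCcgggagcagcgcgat
ETS2 downstream start (chr21:38805679-38805978, plus strand): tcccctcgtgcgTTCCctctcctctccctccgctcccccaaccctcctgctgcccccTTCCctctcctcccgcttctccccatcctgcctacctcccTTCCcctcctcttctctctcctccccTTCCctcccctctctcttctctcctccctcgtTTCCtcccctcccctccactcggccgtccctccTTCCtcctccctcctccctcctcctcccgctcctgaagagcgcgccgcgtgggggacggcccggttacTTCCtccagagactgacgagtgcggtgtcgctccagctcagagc
On both strands, the ETV6 window held the core 4 times, the upstream ETS2 window 4 times and the downstream ETS2 window 7 times. Such a core is common: 95.5% of 35116 promoter windows of this length held at least 1, with a median of 3, and 8.29% held 7 or more. The downstream ETS2 window also held GAGGAAGT, a match of the kind SPI1 prefers that contains the core and that stood in 2.59% of all windows. The match TTGCNNAA, of the kind C/EBP factors prefer, was in none of the 3 windows and in 10.5% of all windows. Among the windows of the other 5 genes, 1 of SPIB held TTGCNNAA and 1 of GABPA held CCGGAAGT, a longer ETS match found in 4.14% of all windows. A match of letters describes the sequence only, and binding was not measured.

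SPI1, the myeloid and B-cell factor PU.1, rose on its single probe set. Its log2 values were 6.11, 6.23, 6.27 and 6.27 with estradiol and 5.79, 5.86, 5.88 and 5.78 with vehicle. All 4 estradiol arrays lay above all 4 vehicle arrays. The means were 6.22 ± 0.08 (SD, n = 4) and 5.83 ± 0.05, a difference of 0.39 ± 0.06 (SE, 1.31-fold, limma adjusted p = 0.00174). The SPI1 call held in each of the 17 alternative fits over probe sets. Of 10 granulocyte and monocyte markers, 1 was called higher and 1 lower, 20% against 17.9% of all genes. The mean over these markers ranged from 4.63 to 4.70 in the estradiol arrays and from 4.59 to 4.72 in the vehicle arrays.

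**Figure D2:**
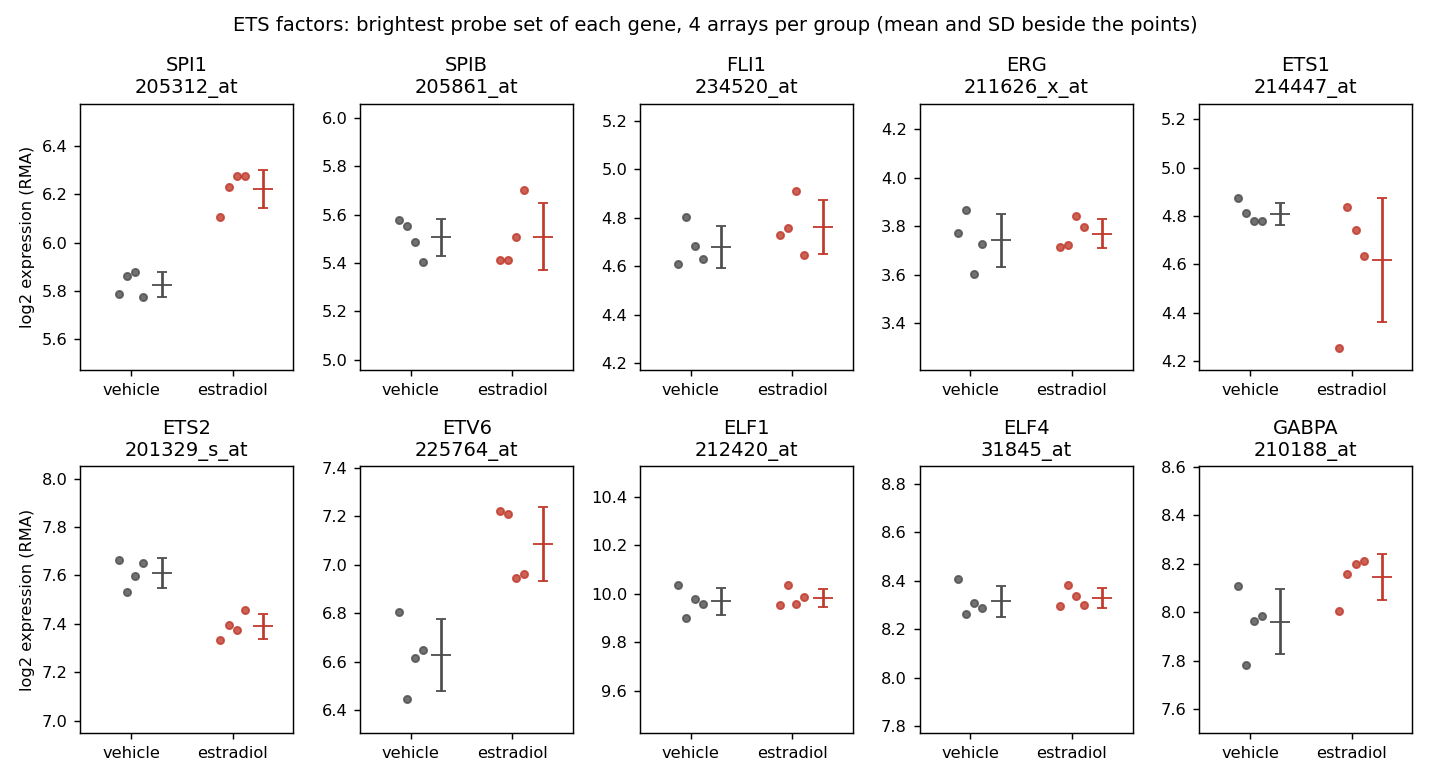
Log2 expression of the brightest probe set of each of the 10 genes, with 1 point per array and the mean and SD beside the points; every panel spans the same range on its axis. The groups separate at SPI1, ETS2 and ETV6, while the 4 arrays of each group overlap at the other 7 genes.

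GATA1, which binds SPI1 directly and is opposed by it, moved the other way. Its log2 values were 8.98, 9.04, 9.05 and 9.03 with estradiol and 9.92, 9.91, 9.93 and 9.93 with vehicle, and both of its probe sets were called lower. Of the 9 erythroid markers, GATA1, KLF1 and HBE1 were called lower and 0 higher, 33.3% against 17.9% of all genes called. The mean over the markers ranged from 10.09 to 10.17 with estradiol and from 10.33 to 10.38 with vehicle. That mean includes GATA1 itself. KLF1 fell by 0.71 and HBE1 by 0.17, while the 6 markers not called differed by −0.18 to 0.08. The part of other erythroid changes in this result was not tested. The difference between SPI1 and GATA1 within each array was −2.87, −2.81, −2.78 and −2.75 with estradiol. With vehicle it was −4.13, −4.05, −4.04 and −4.15. The signal of SPI1 relative to GATA1 was thus 2.44-fold higher with estradiol, a change of 1.29 on the log2 scale. No test was run on this difference, since both genes separated the groups in opposite directions and the difference had to separate them too. Most of that change came from GATA1, which fell by 0.89 ± 0.04 (SE, limma adjusted p = 7.38e-07), and signals of different probe sets do not compare the amounts of the transcripts.

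**Figure D3:**
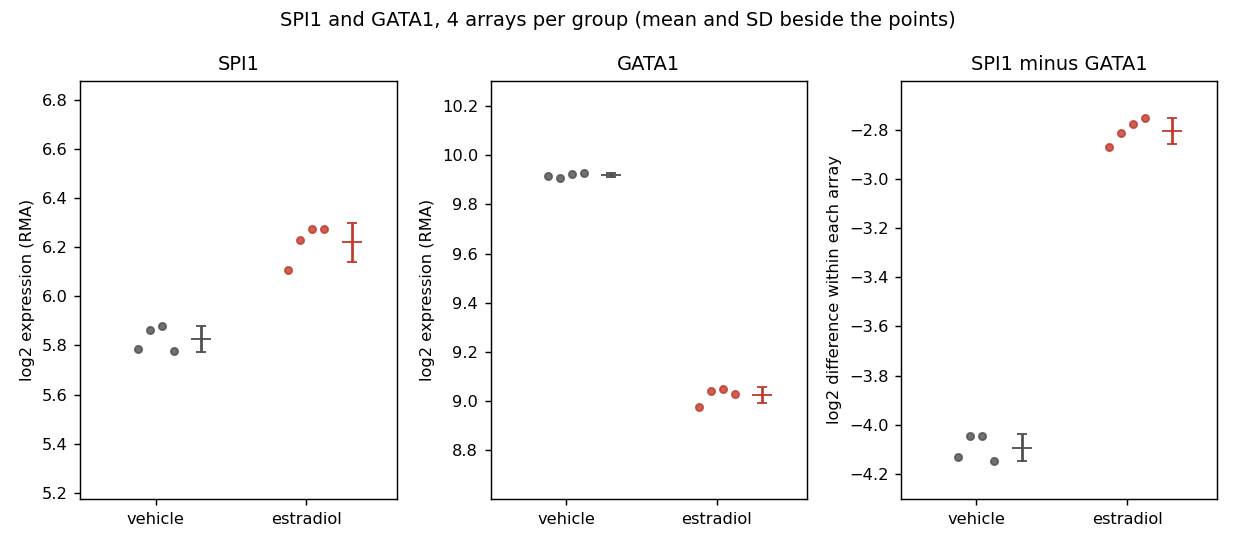
Log2 expression of SPI1 and of GATA1 and the difference between them within each array, with 1 point per array and the mean and SD beside the points; all 3 panels span the same range. SPI1 is higher and GATA1 lower in every estradiol array, and the difference moves from a mean of −4.09 to −2.80.

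SPIB, the closest relative of SPI1 and a factor of B cells and plasmacytoid dendritic cells, was not called. Its brighter probe set had estradiol values of 5.41, 5.41, 5.51 and 5.70 and vehicle values of 5.58, 5.55, 5.49 and 5.41. The ranges of the groups overlapped, and the difference was 0.00, with a 95% interval of −0.17 to 0.17. The dimmer probe set differed by 0.01, with an interval of −0.20 to 0.23.

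ETV6, a repressor also named TEL, had the largest change of the 10 genes. At probe set 235056_at the estradiol arrays gave 6.58, 6.61, 6.64 and 6.55 and the vehicle arrays 6.11, 5.79, 5.81 and 5.75. The groups did not overlap, and vehicle replicate 1 stood above the other vehicle arrays. The difference was 0.73 ± 0.08 (SE, 1.66-fold, adjusted p = 2.96e-04), and 0.81 without vehicle replicate 1. At probe set 225764_at, the brightest, the estradiol arrays gave 7.22, 7.21, 6.94 and 6.96 and the vehicle arrays 6.80, 6.45, 6.61 and 6.65. The lowest estradiol array again lay above the highest vehicle array, and the difference was 0.46 ± 0.09 (1.37-fold, adjusted p = 0.0130).

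The remaining 3 ETV6 probe sets were also higher on average without passing the test. Their differences were 0.28 ± 0.08 (SE, adjusted p = 0.0613), 0.22 ± 0.10 (0.215) and 0.18 ± 0.14 (0.514). At the first of them, 205585_at, the groups did not overlap, with 4.86 to 5.13 under estradiol and 4.58 to 4.85 under vehicle. Within arrays, 235056_at gained 0.28 on 225764_at (two-sided exact permutation p = 0.0286, the smallest that 4 against 4 arrays can give, and 0.0571 adjusted over the 2 within-array differences tested, which misses the threshold). The sources used here do not give which exons or transcripts these probe sets read. Taken as the mean of its 5 probe sets, ETV6 rose by 0.38 (adjusted p = 0.00159 over genes).

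ETS2, a factor activated by the ERK kinase path, fell on its bright probe sets. At 201329_s_at the estradiol arrays gave 7.33, 7.40, 7.37 and 7.46 and the vehicle arrays 7.66, 7.53, 7.60 and 7.65. Every estradiol array was below every vehicle array, and the difference was −0.22 ± 0.05 (SE, 1.17-fold lower, adjusted p = 0.0280). At 201328_at the values were 7.34, 7.28, 7.25 and 7.19 against 7.72, 7.43, 7.41 and 7.57, again without overlap. Its difference was −0.26 ± 0.08 (adjusted p = 0.0578), which missed the threshold. Within arrays the changes of these 2 probe sets differed by −0.04 (exact permutation p = 0.571). The dim probe set 241193_at, with means of 3.38 and 3.41, differed by −0.04 ± 0.07.

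The call of ETS2 sat near the threshold. At 201329_s_at it was lost with the medians of the arrays set equal (−0.20, adjusted p = 0.0925), with the replicate number as a block (0.0953) and in 6 of the 8 fits without 1 array (0.0628 to 0.0884), which left out estradiol replicate 1, 2 or 3, or vehicle replicate 1, 3 or 4. In the fit over genes ETS2 was called (adjusted p = 0.0114) and kept its call without each array in turn, at adjusted p from 0.00650 to 0.0406.

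GABPA, the DNA-binding subunit of the GA-binding protein, was higher on average on both probe sets without a call. At 227428_at the estradiol arrays gave 6.70, 6.66, 6.71 and 6.76 and the vehicle arrays 6.64, 6.27, 6.47 and 6.49. The groups did not overlap, though vehicle replicate 1 came within 0.02 of the lowest estradiol array. The difference was 0.24 ± 0.08 (SE, adjusted p = 0.0857), and 0.30 without vehicle replicate 1, where it passed (0.0278). At 210188_at the values were 8.0, 8.16, 8.20 and 8.21 against 8.11, 7.78, 7.96 and 7.99. There the groups overlapped and the difference was 0.18 ± 0.08 (adjusted p = 0.214).

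**Figure D4:**
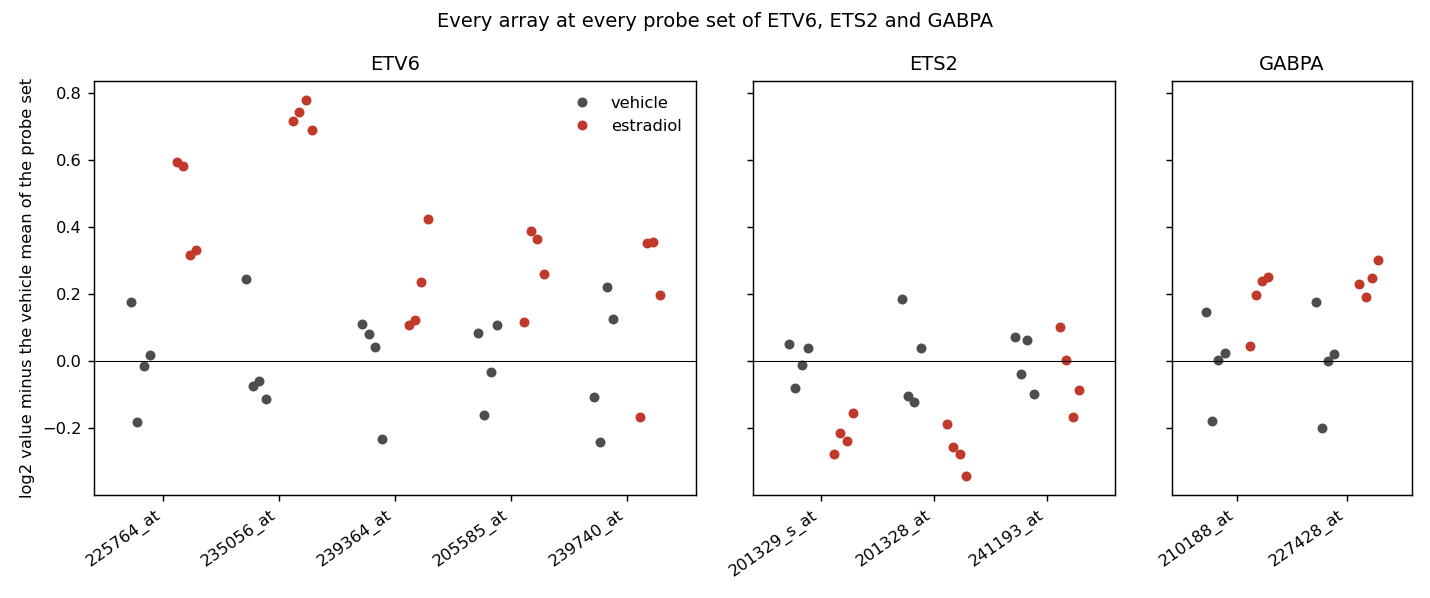
Log2 value of each array minus the vehicle mean of the probe set, for the 5 probe sets of ETV6, 3 of ETS2 and 2 of GABPA, ordered from bright to dim within a gene. Estradiol points of ETV6 reach 0.78 above the vehicle mean at 235056_at, and those of ETS2 lie below it at the 2 bright probe sets.

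Vehicle replicate 1 stood high across the brighter members. It was the highest vehicle array at 12 of the 13 member probe sets with a mean at or above 5.04, and at 42.9% of all such probe sets. Vehicle replicate 2 was the lowest vehicle array at 8 of the 13, and at 54.7% of all. Their part in the results was not tested beyond the fits without each array.

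ELF1 and ELF4, closely related factors of blood cells, had bright probe sets whose groups overlapped. ELF1 gave 9.95, 10.03, 9.96 and 9.99 with estradiol and 10.04, 9.90, 9.98 and 9.96 with vehicle at 212420_at. Its differences were 0.02 and 0.10 at the 2 probe sets, with 95% intervals of −0.10 to 0.13 and −0.04 to 0.23. ELF4 gave 8.29, 8.38, 8.34 and 8.30 against 8.41, 8.26, 8.31 and 8.29 at 31845_at. Its differences were 0.01 and 0.03, with intervals of −0.10 to 0.13 and −0.10 to 0.15. Changes of 0.25 or more on the log2 scale thus lay outside the intervals of both genes.

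FLI1, ERG and ETS1 gave dim signals in this line. All 13 of their probe sets had a mean below 5.04, and 9 of them lay below 3.72, the lower quartile of the probe set means. How far these signals lay above background is unknown, since the values come without detection calls. FLI1, which drives megakaryocyte genes, ranged from 2.61 to 4.72 in mean level over 6 probe sets, and its differences ranged from −0.04 to 0.08. ERG, a stem cell factor, ranged from 2.78 to 3.76 over 4 probe sets, with differences of −0.13 to 0.03. One of these, 211626_x_at, carries the suffix that the array maker gives to probe sets that may also read other transcripts.

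ETS1, a factor of lymphoid cells, ranged from 2.78 to 4.71 over 3 probe sets, with differences of −0.19 to 0.06. At its brightest, 214447_at, the estradiol arrays gave 4.25, 4.84, 4.74 and 4.64 and the vehicle arrays 4.87, 4.81, 4.78 and 4.78. Estradiol replicate 1 stood lowest, and without it the difference shrank from −0.19 to −0.07. None of the 13 probe sets of these 3 genes was called by limma, against 10.4% of all probe sets. At an unadjusted p below 0.05, 0 were higher or lower, against 10% higher and 11.3% lower among all probe sets. Adjusted p ran from 0.392 to 0.960, and the 95% intervals together ran from −0.44 to 0.30. Dim signals understate changes, so these intervals hold for the signal.

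The genome sets some of these factors side by side: FLI1 and ETS1 are neighbours on chromosome 11, and ERG and ETS2 on chromosome 21, with 0 other protein-coding genes starting between them. Neither FLI1 nor ETS1 was called. In the other pair ETS2 fell on a bright probe set while ERG had no call, but ERG was dim, so whether these neighbours differ cannot be told. Other members of the family were counted from a list of 18 genes, of which 17 were measured. Estradiol lowered 4 of them and raised 1, which is 29.4% against 17.9% of all genes, and the median change was −0.11 against −0.03. Among genes above the median level, fitted alone, 4 of 11 were called, against 4276 of 9887 genes. FEV, a factor of serotonin neurons, fell by 0.51 ± 0.08 (SE, adjusted p = 0.00269) and ERF, a repressor inhibited by ERK, fell by 0.43 ± 0.05 (adjusted p = 1.91e-04). ETV3, also a repressor, fell by 0.23 ± 0.06 and the epithelial factor ELF5 fell by 0.21 ± 0.05, from a dim vehicle level of 4.11. For ETV3 1 of 3 probe sets was called, and others reached 0.05. ETV5, a target of ERK signals, rose by 0.39 ± 0.07, with 3 of its 5 probe sets called higher. ELK3 had the smallest p among those not called, at −0.37 ± 0.15 (adjusted p = 0.144). Of the 17, 3 were called when each gene's probe sets were averaged, and also in each fit that left out estradiol replicate 1, estradiol replicate 3, vehicle replicate 3 or vehicle replicate 4.

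Partners of ETS proteins in blood cells, most of which are DNA-binding factors while LMO2 and LDB1 bridge such factors, moved in both directions. Of 19 listed partners 18 were measured, and 6 fell and 4 rose, 55.6% against 17.9% of all genes, with a median change of 0.01. When only genes above the median level were fitted, 8 of 12 partners were called, against 4276 of 9887 genes. Those that fell were the erythroid repressor GFI1B (−1.58 ± 0.04, SE), LYL1 (−1.06 ± 0.04), GATA1, LMO2 (−0.51 ± 0.04), LDB1 (−0.46 ± 0.04) and the progenitor factor GATA2 (−0.22 ± 0.06). The rises were FOS by 2.65 ± 0.11, from a dim vehicle level of 4.44, MYB, another progenitor factor, by 0.68 ± 0.04, JUN, a partner of FOS in AP-1, by 0.61 ± 0.05 and the granulocyte factor CEBPE by 0.41 ± 0.08. TAL1, which joins LMO2 and LDB1 in 1 complex, stood at 10.19 ± 0.03 (SD, n = 4) and 10.10 ± 0.03, a difference of 0.08 ± 0.04 (adjusted p = 0.189).

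Among 12 measured cofactors 3 rose and 2 fell, 41.7% against 17.9%, with a median of 0.06. The cofactors are bright, and among genes above the median level, fitted alone, 5 of 11 were called, near the 4276 of 9887 genes. The acetyltransferases EP300 and CREBBP, coactivators of many ETS factors, rose by 0.36 ± 0.05 and 0.26 ± 0.06 (SE), and the kinase PIM1 rose by 0.19 ± 0.05. For CREBBP 1 of 4 probe sets was called, and others reached −0.27. TCF3, an E-protein, fell by 0.23 ± 0.05 and DAXX, which binds ETS1, fell by 0.19 ± 0.04. For TCF3 7 of 14 probe sets were called lower, and others reached 0.04. The beta subunits that pair with GABPA, GABPB1 and GABPB2, differed by 0.12 and 0.01 without passing the test. KAT5, an acetyltransferase, had the smallest p among those not called, at 0.11 ± 0.05 (adjusted p = 0.155). With the replicate number as a block 1 of the 12 was called.

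Target genes were counted beside the factors, from lists drawn up from general knowledge, and whether each gene is a target was not tested. Of 30 measured myeloid genes listed as SPI1 targets 4 rose and 2 fell, 20% against 17.9% of all genes, with a median of −0.01. Fitted with only genes above the median level over genes, 5 of 9 were called, against 4276 of 9887 genes. SPI1 itself, which binds its own gene, is 1 of the 4. The Fc receptor FCGR2A rose by 1.05 ± 0.07 (SE), with 8.34, 8.34, 8.25 and 8.31 under estradiol and 7.46, 7.20, 7.19 and 7.20 under vehicle, on 1 of its 2 probe sets. FCER1G, the signalling chain of several other Fc receptors, rose by 0.31 ± 0.06 and lysozyme, LYZ, by 0.25 ± 0.07. The adaptor TYROBP fell by 0.28 ± 0.06 and elastase, ELANE, fell by 0.23 ± 0.07. Both fell from levels below 5.04, the median of the means of all probe sets. The classical SPI1 targets CSF1R, CSF3R, ITGAM and CD14 differed by −0.11, 0.08, −0.17 and 0.08, without a call. BTK had the smallest p among those not called, at −0.12 ± 0.05 (adjusted p = 0.139).

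Of 18 measured megakaryocyte genes listed as targets of FLI1, ERG, ETS1 or GABPA 4 rose and 3 fell, 38.9% against 17.9%, with a median of −0.05. Among genes above the median level, fitted alone, 6 of 8 were called, against 4276 of 9887 genes. Thrombospondin, THBS1, rose by 2.67 ± 0.10 (SE), from 6.55 to 7.04 under vehicle to 9.42 to 9.62 under estradiol, with all 7 of its probe sets called higher. The secretion factor RAB27B rose by 0.87 ± 0.07, the factor NFE2 by 0.86 ± 0.04 and the phosphatase PTPN11 by 0.16 ± 0.05. The platelet tubulin TUBB1 fell by 1.02 ± 0.09, the collagen receptor GP6 fell by 0.34 ± 0.10 and the myosin MYH10 fell by 0.25 ± 0.04. ITGA2B, GP9, GP1BA and PF4, whose promoters are textbook ETS targets, differed by −0.05, −0.15, −0.07 and 0.00 without a call. PPBP, a platelet chemokine, had the smallest p among those not called, at −0.18 ± 0.06 (adjusted p = 0.0543) from a dim vehicle level of 3.46. Of 6 megakaryocyte markers, all of them also in this list, 0 were called higher and 1 lower by limma, GP6, which is 16.7% against 17.9%. Their mean per array ranged from 5.32 to 5.40 with estradiol and from 5.47 to 5.51 with vehicle, without overlap, and its part in the result was not tested.

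Among 19 measured nuclear genes of mitochondria listed as GABPA targets 0 rose and 3 fell, 15.8% against 17.9%, with a median of 0.00. All 19 lay above the median level, and in the fit of such genes 5 of 19 were called, against 4276 of 9887 genes. At an unadjusted p below 0.05 in limma 0 were higher and 5 lower, which is 26.3% lower against 15.8% of all genes. The mitochondrial transcription factor TFB2M fell by 0.45 ± 0.05 (SE), the polymerase subunit POLG2 fell by 0.30 ± 0.05 and the ribosomal protein MRPL12 fell by 0.15 ± 0.04. For TFB2M 1 of 4 probe sets was called, and others reached 0.07. For MRPL12 0 of 2 were called in the fit over probe sets, with changes of −0.15 and 0.00. None of the 9 measured subunits of cytochrome c oxidase was called, against 17.9% of all genes. At an unadjusted p below 0.05, 0 were higher or lower, against 12.4% higher and 15.8% lower among all genes. TFB1M, a relative of TFB2M, had the smallest p among those not called, at −0.14 ± 0.04 (adjusted p = 0.0698).

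The ERK path that phosphorylates ETS1 and ETS2 was represented by 15 measured genes, of which 4 rose and 2 fell, 40% against 17.9%, with a median of 0.01. Most are bright, and among genes above the median level, fitted alone, 6 of 13 were called, near the 4276 of 9887 genes. Of 8 feedback genes, grouped with values known, 3 rose and 2 fell, where 8.29% of all genes rose and 9.6% fell. The phosphatase DUSP5 rose by 1.06 ± 0.14 (SE), SPRY4 by 0.76 ± 0.08 and SPRED2 by 0.42 ± 0.05. SPRY2 fell by 0.71 ± 0.06 and SPRY1 fell by 0.50 ± 0.07. The other 3 measured feedback genes, DUSP4, DUSP6 and SPRED1, differed by −0.20 (adjusted p = 0.492), 0.05 (0.892) and −0.06 (0.754). CBL, a ubiquitin ligase, rose by 0.44 ± 0.06. The kinases ARAF, MAP2K1, MAP2K2 and MAPK3 differed by −0.04, −0.03, 0.09 and −0.06, without a call. CAMK2G, a kinase that phosphorylates ETS1, had the smallest p among those not called, at 0.10 ± 0.06 (adjusted p = 0.279).

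**Figure D5:**
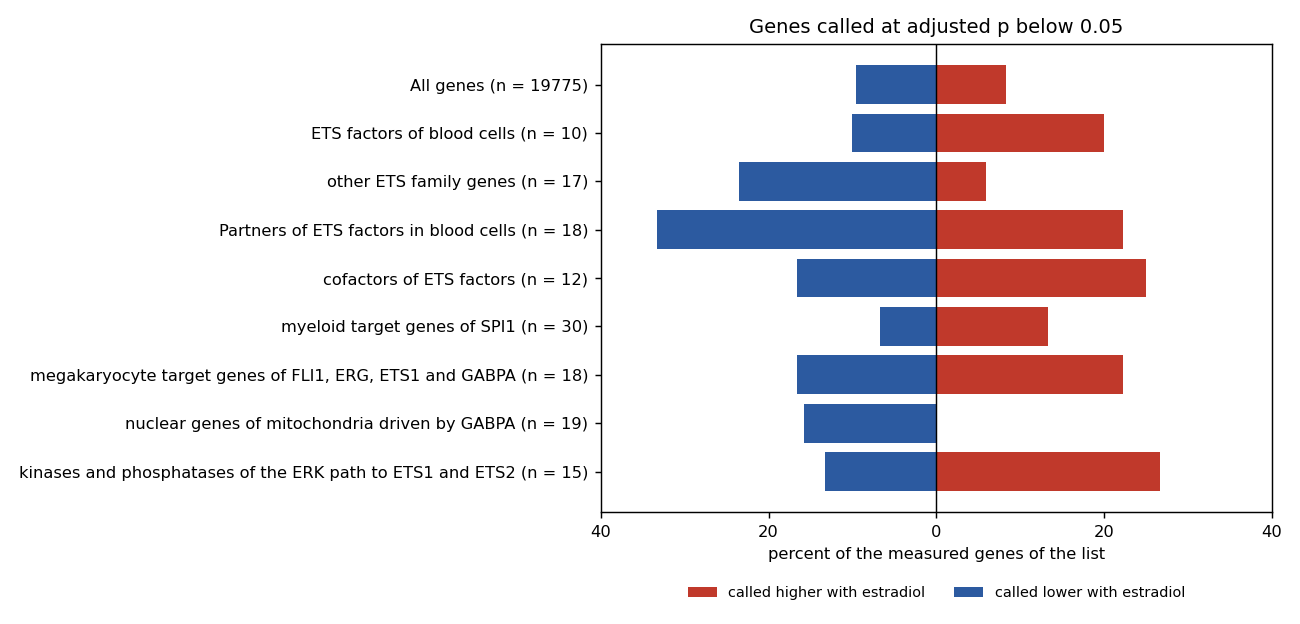
Percent of the measured genes of each list called higher (right) or lower (left) with estradiol at adjusted p below 0.05, with all 19775 genes in the top bar. The bar of the 10 ETS factors stands for 2 genes higher and 1 lower, and that of the 18 partners for 4 higher and 6 lower. The top bar holds genes of every level, and calls were commoner when only bright genes were fitted.

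The genes closest to SPI1 in their values over the 8 arrays, each taken relative to its own vehicle mean, were CLSPN, EP300 and TFEB, with root mean square differences of 0.06, 0.07 and 0.07 among 5396 genes within 1 log2 unit of its level. For ETV6 they were MXD1, DGKQ and ADAT1, at 0.07, 0.08 and 0.08 among 4364 genes. The SPI1 neighbours rose by 0.36 to 0.44 and the ETV6 neighbours by 0.38 to 0.49, as selection for a like pattern requires.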

How the data were processed

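Expression was measured on 8 arrays, 4 per group, grouped and numbered from the sample titles. The authors deposited log2 expression, which the submitters' processing notes attribute to RMA. That method usually pulls arrays toward a common distribution, which can hide a shift of all genes, and understates changes of dim ones; array medians (4.97 to 5.08) and upper quartiles (6.90 to 7.03) still differed. The sources used here do not give its version or chip definition.

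After leaving out 62 control probe sets, 54613 were tested with limma 3.58.1 in R 4.3.3 (lmFit and eBayes, estradiol minus vehicle, no covariate, no filter on dim values), with Benjamini-Hochberg adjusted p-values called below 0.05. Of these, 41091 had 1 gene symbol, 1801 several and 11721 none; symbols checked through gene identifiers in a RefSeq table changed in 0 cases. A second fit took the brightest probe set of each of 19775 genes. Both were tested on simulated data. Exact permutation tests used scipy 1.17.1 and figures matplotlib 3.10.9. Promoters are RefSeq windows (GRCh38.p14), matched by symbol for 7 of 10 genes.

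The members, lists and tests were chosen with earlier results of these data known. Listed genes without a probe set of their own were not analysed here. Named are all members with all probe sets, up to 4 called genes with the largest change and the uncalled gene with the smallest p per list, and CEBPA, ESR1, GATA1 and MYC (MYC fell by 1.19); further list genes were picked with values known. Alternatives were the replicate number as a block, 3 scalings, 2 filters, a variance trend, array weights, each array left out, a stricter threshold and the mean or median of a gene's probe sets. The sample titles number the arrays without saying whether equal numbers form pairs. Deviations of same-numbered arrays correlated at −0.08, −0.24, 0.09 and 0.10. Estradiol replicates 3 and 4 correlated best with the vehicle array of their own number, and estradiol replicates 1 and 2 did not. Correlations this weak over 4 numbers cannot decide whether the arrays were paired.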

Additional observations from a re-analysis of the deposited data

Results flagged for a closer look

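Each group of 4 arrays was searched for an array far from the other 3, over 132 groups, 60 of them of member probe sets and 72 of other named genes. Chance flags about 1 in 20 groups, and 10 stood apart here, 1 of them in a member. ETV6 at 235056_at gave 6.11 for vehicle replicate 1, while the remaining vehicle arrays gave 5.75 to 5.81.

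Among the other named genes, vehicle replicate 1 also stood high at FCGR2A, with 7.46 against 7.19 to 7.20, at FCER1G, with 5.98 against 5.82 to 5.84, and at SPRY1, with 6.93 against 6.68 to 6.70. Estradiol replicate 1 was low at ELK3, with 4.97 against 5.19 to 5.22, and at EP300, with 6.82 against 6.92 to 6.94. At TYROBP estradiol replicate 1 was high, with 3.80 against 3.58 to 3.61, and vehicle replicate 4 was low, with 3.85 against 3.94 to 3.95. NFE2 was 10.94 in estradiol replicate 2 against 10.85 to 10.86, and MRPL12 was 10.47 in vehicle replicate 4 against 10.42.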

How the results depend on the processing

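No called change of a member gene or probe set reversed its direction in the alternatives run, and other genes were followed by counts only. The count of called member probe sets, 4, became 7 with the upper quartiles set equal, with quantile normalization and with array quality weights (5 higher and 2 lower each), became 2 at adjusted p below 0.01, and ran from 3 to 5 without 1 array. The cause was not tested. Over all probe sets the 5669 calls became 3663 with the replicate block and 3265 at adjusted p below 0.01, and over genes the 3538 calls became 2179 at that threshold; without 1 array these ran from 4005 to 5757 and from 2732 to 3551. Of 17 other ETS genes 5 were called, and 3 with the replicate block, with equal medians, below 0.01 and with the mean of probe sets, 2 with their median, and 3 to 6 without 1 array. Of 12 cofactors 5 were called, and 1 with the replicate block, 2 below 0.01 and 3 with the median of probe sets; with their mean, the 3 higher and 2 lower became 2 higher and 3 lower. Of 19 mitochondrial genes 3 fell, and 5 with rows above the median level only and with a variance trend. The block changed 1 call of a member probe set, that of ETS2 201329_s_at. Single members near the threshold moved across it: ETS2 201328_at passed in 7 of 17 alternatives, ETV6 205585_at in 6 of 16 and GABPA 227428_at in 5 of 17. With 4 arrays a group, differences of dim probe sets are limited by the unknown background.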
